A study of Mus musculus with 18 samples.

Results

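The genes described here form the cytosolic nucleic acid sensing pathway of the mouse fibroblast line NIH3T3, the set of sensors, adaptors, kinase and transcription factor through which a cell detects RNA or DNA in its cytosol. They were chosen by name, as 9 of the 24062 genes listed in the count tables, and all 9 were found under the listed symbols. These are Ddx58 (RIG-I), Ifih1 (MDA5), Dhx58 (LGP2), Mavs, Mb21d1 (cGAS), Tmem173 (STING), Tbk1, Irf3 and Trex1. The rule names genes and sets no threshold on a measured value.

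RNA was measured in 18 samples of NIH3T3 cells, an established line of mouse embryonic fibroblasts. The parental line, called WT here, was compared with NIH3T3-mCherry-mTRIM21, called the TRIM21 line here, a line derived from NIH3T3 that carries mouse TRIM21 joined to the fluorescent protein mCherry. TRIM21 is a ubiquitin ligase that binds antibodies in the cytosol. Cells of each line were electroporated with an antibody (labelled ab18447 or IgG), with bovine serum albumin (BSA) or with PBS alone, and each of the 6 combinations had 3 samples. All cells were grown with calf serum, and all received 2 pulses of 20 ms at 1400 V, so none of the groups was left without electroporation. BSA and IgG were given at 7.5 µg a reaction, and RNA was taken 16 h later. Each line is 1 line, so a difference between the lines cannot be told apart from other differences between a derived line and its parent. The labels do not say whether the 3 samples of a group were separate cultures. The p-values therefore measure the spread between these samples, part of which may be technical.

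In cells, RIG-I and MDA5 bind foreign or unusual double-stranded RNA and pass the signal to MAVS on the outer mitochondrial membrane, and LGP2 tunes that response. cGAS binds DNA in the cytosol and makes a cyclic dinucleotide that activates STING on the endoplasmic reticulum. Both arms meet at the kinase TBK1, which phosphorylates IRF3, and IRF3 then switches on type I interferon genes. TREX1 is an exonuclease that degrades cytosolic DNA and so keeps cGAS from its ligand. Several of the RNA sensors are themselves interferon-induced, and protein activation in this pathway runs through binding and phosphorylation, which transcript counts do not measure. The comparisons ask whether the transcripts of the pathway differ with the introduced TRIM21 or with the electroporated protein.

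The TRIM21 samples held 20314542 to 29766433 reads assigned to genes (n = 9) and the WT samples 19509017 to 26521824 (n = 9). Trim21 itself had 19900 to 32225 counts in the TRIM21 line and 142 to 223 in the WT line (log2 fold change 7.02, edgeR with Benjamini-Hochberg adjusted p = 2.32e-19), so the label of each of the 18 samples matched its Trim21 level. The 10 fibroblast markers examined summed to between 19604 and 38979 CPM (counts per 1000000 gene reads, with TMM scaling). Of 9 macrophage markers, Tyrobp was at 0 reads in every sample, and Ptprc, Itgam and Lyz2 had at most 5 reads in any sample. Cd68 (104 to 210 reads), Cd14 (80 to 154 reads) and Csf1r (43 to 83 reads) were counted in every sample, and the list summed to between 12.6 and 18.1 CPM. The 5 endothelial markers summed to between 0.479 and 2.65 CPM and the 6 epithelial markers to between 0.623 and 2.32 CPM.

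The RNA sensor genes Ddx58 and Ifih1 carry GAAA repeats near their transcription start. With a gap of 2 bases such a repeat is the core of the interferon-stimulated response element, the site that IRF factors bind. Ddx58 and Ifih1 are shown because no other member searched held a match. The gap and window used were widened after a narrower search had found no match in any member searched. The search was for GAAA, then 1 or 2 bases of any kind, then GAAA, on both strands, in RefSeq promoter windows of the GRCm38.p6 mouse assembly that run from 250 bases before a start to 50 after it. The windows below are read 5′ to 3′ on the gene's strand, with the repeat in capitals.
Ddx58, 60 bases before its start: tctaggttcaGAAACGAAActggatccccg
Ddx58, from base 2 after its start: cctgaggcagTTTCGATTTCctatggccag
Ifih1, from base 32 after its start: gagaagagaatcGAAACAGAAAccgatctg
The first Ddx58 window lies at chr4:40239866-40239895 and the second at chr4:40239804-40239833, both on the minus strand. The first holds the repeat with a gap of 1 base, which is not the spacing of that core. The second holds it with a gap of 2 bases on the opposite strand, so it appears here as TTTC. The Ifih1 window lies at chr2:62646206-62646235 on the minus strand and has a gap of 2 bases.

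Of the 9 members, 7 were found in the promoter table, with 8 promoters between them, and Dhx58 and Tmem173 were not. Over the whole 300-base window, 2 of these 7 members held the repeat with a gap of 1 or 2 bases, against 6.27% of all 32851 promoters and 4.92% of the 11640 promoters of genes tested here. In the 250 bases before the start alone, and with a gap of 2 bases only, none of the 7 members held it, against 2.98% of all promoters. The wider gap and window were chosen after the stricter search had been seen. Mavs, Mb21d1, Tbk1, Irf3 and Trex1 held no match in either window, which says only that these letters are not there.

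The members spanned a wide range of transcript levels, with the shared kinase highest and the RNA sensors lowest. Levels are compared between genes only per length, as CPM per kilobase of exon. Tbk1, the shared kinase, stood highest at 20.0 ± 2.31 CPM per kb (SD, n = 18), at percentile 79.0 of the 12034 tested genes with a known exon length. Irf3 followed at 10.6 ± 0.998 and Mavs at 9.86 ± 0.630 CPM per kb (SD, n = 18). Trex1 at 7.90 ± 1.78, Mb21d1 at 7.74 ± 1.28 and Tmem173 at 5.88 ± 0.917 CPM per kb (SD, n = 18) lay near the median of the tested genes, which was 6.72.

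The 3 RNA sensors were the lowest members. Ddx58 stood at 2.37 ± 0.425 CPM per kb (SD, n = 18; percentile 26.2) and Dhx58 at 0.538 ± 0.115 (SD, n = 18; percentile 10.6). Ifih1 stood at 0.0190 ± 0.0102 CPM per kb (SD, n = 18), a level above that of 0.0582% of the tested genes. Ifih1 itself did not pass the filter on low counts that defines the tested genes, so this place reflects the filter. The mean level of Tbk1 per length was 37.2-fold that of Dhx58. Over the 18 samples the ranges of Tbk1 and Irf3 did not overlap, nor did those of Tmem173 and Ddx58, of Ddx58 and Dhx58, or of Dhx58 and Ifih1. The ranges of Irf3 and Mavs, Mavs and Trex1, Trex1 and Mb21d1, and Mb21d1 and Tmem173 overlapped. Within single samples, Irf3 stood above Mavs in 14 of 18 and Mavs above Trex1 in 15. Trex1 stood above Mb21d1 in 9 of 18 and Mb21d1 above Tmem173 in 15. Differences between these neighbours were not tested. With the longest transcript in place of all exon bases no member changed rank, but the ranges of Tbk1 and Irf3 and of Tmem173 and Ddx58 then overlapped, while those of Irf3 and Mavs did not.

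**Figure D1:**
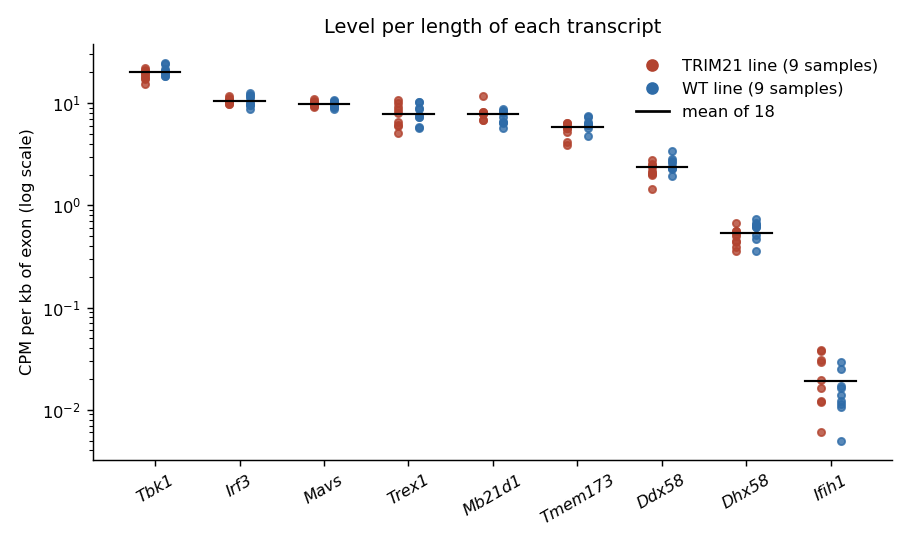
Transcript level of each member in CPM per kilobase of exon on a log axis, with 1 point per sample (9 samples of the TRIM21 line and 9 of the WT line) and a bar at the mean of the 18 samples. Tbk1 stands highest at 20.0, 5 members lie between 5.88 and 10.6, and the RNA sensors Ddx58, Dhx58 and Ifih1 form the lower end, with both lines on top of each other.

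Between the lines, no member of the pathway passed the test. A quasi-likelihood model in edgeR was fitted to all tested genes, and a gene was called where its Benjamini-Hochberg adjusted p-value was under 0.05. Of the 12140 tested genes, 750 (6.18%) were called between the lines, 169 higher (1.39%) and 581 lower (4.79%) in the TRIM21 line. Of the 9 members, 8 passed the filter on low counts, and 0 of these 8 were called in either direction by edgeR. None of the 8 had an unadjusted p under 0.05, whereas 21.4% of all tested genes did. With 1 sample left out, 0 to 2 of the 8 had one. There were 2 without the TRIM21 PBS samples numbered 10 or 14 or the WT samples numbered 11 after PBS or BSA. With the sample number added to the edgeR model as a block, 3 of the 8 had one, beside 3318 of the 12140 tested genes. DESeq2 and limma-voom also called 0 members between the lines, against 1038 and 735 genes in all. Of the 8 members, 6 were lower and 2 higher in the TRIM21 line, with a median log2 fold change of -0.084 against 0.014 over all tested genes. The 95% intervals of the 8 members lay between -0.53 and 0.33, so a difference of more than 1.44-fold lay outside the interval of every tested member. In bulk RNA, fewer cells with a transcript and less of it in each cell cannot be told apart.

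No treatment difference was called either. In each of the 6 treatment contrasts within a line, the 3 averaged over lines and the 3 differences between lines, edgeR called 0 of the 12140 genes (0%) and 0 of the 8 members. At an unadjusted p under 0.05 these 12 contrasts held 45 to 790 genes and 0 to 2 members each, and neither DESeq2 nor limma-voom called a member in any of them. DESeq2 called 1 gene in 1 of them, Dancr, for IgG minus PBS over both lines, and limma-voom called 0. The members' 95% intervals reached at most 1.91-fold in the contrasts within a line and 2.80-fold in the differences between lines. IgG minus PBS in the TRIM21 line had 681 genes with an unadjusted p under 0.05, and 2 members among them, Ddx58 and Mb21d1. This count hung on single libraries. Without the TRIM21 PBS library numbered 11 it was 91 genes and 0 members by edgeR. Without the TRIM21 PBS library numbered 14 it was 2354 genes and 3 members. The contrasts against PBS share the PBS samples, and those against BSA share the BSA samples, so they are not independent of each other.

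**Figure D2:**
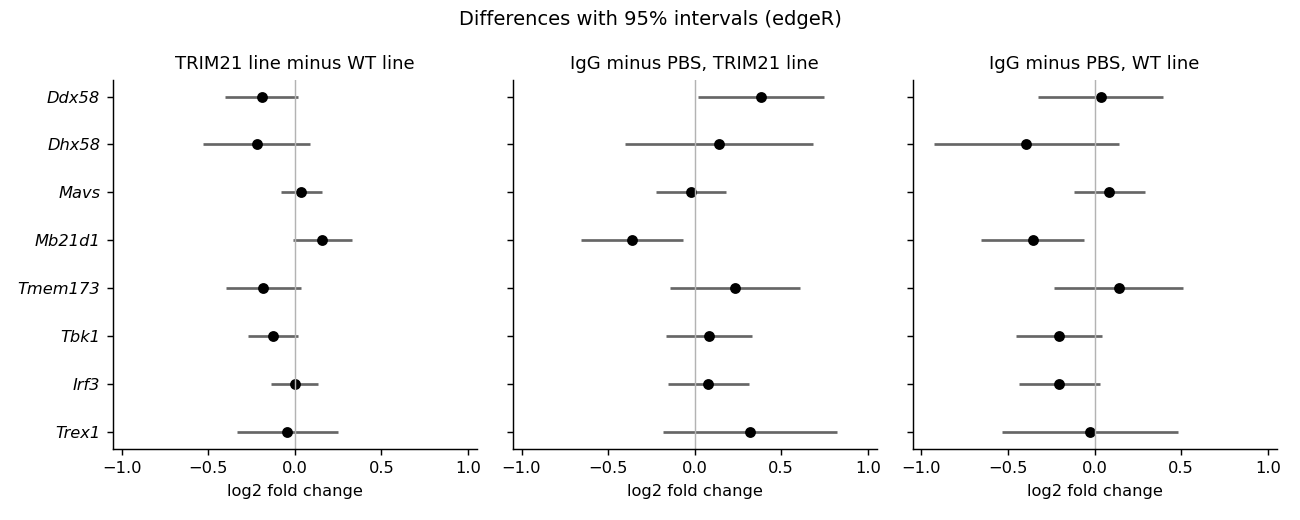
Log2 fold changes of the 8 tested members with 95% intervals from edgeR, for the TRIM21 line minus the WT line (9 against 9 samples) and for IgG minus PBS in each line (3 against 3 samples). All line intervals include 0, and Mb21d1 lies at -0.36 for IgG minus PBS in both lines.

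Ddx58 encodes RIG-I, the sensor of short RNA with a 5′ triphosphate (GRCm38 chr4:40203773-40239828, minus strand, protein coding). In the TRIM21 line the samples numbered 10, 11 and 14 held 14.4, 10.2 and 15.1 CPM after PBS, 13.9, 16.8 and 17.9 CPM after BSA, and 14.7, 17.7 and 19.6 CPM after IgG. In the WT line, in the same order of numbers, they held 16.6, 15.8 and 23.8 CPM after PBS, 16.3, 13.7 and 16.4 CPM after BSA, and 18.4, 19.0 and 20.0 CPM after IgG. The PBS library numbered 11 of the TRIM21 line was the lowest of the 18 and the PBS library numbered 14 of the WT line the highest, and the lines overlapped. The log2 fold change between the lines was -0.19 (SE 0.0992, 95% interval -0.40 to 0.017, edgeR with Benjamini-Hochberg adjusted p = 0.272), and -0.12 without the WT PBS library numbered 14.

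For IgG minus PBS, Ddx58 had a log2 fold change of 0.38 in the TRIM21 line (95% interval 0.020 to 0.75, edgeR unadjusted p = 0.0399, Benjamini-Hochberg adjusted p = 0.724), and the groups overlapped. Without the PBS library numbered 11 the value was 0.23, and without the PBS library numbered 14 it was 0.49. In the WT line the IgG samples, at 18.4 to 20.0 CPM, stood above all 3 BSA samples, at 13.7 to 16.4 CPM, and within the range of the PBS samples. The difference between the lines in BSA minus PBS was 0.56 on the log2 scale (edgeR unadjusted p = 0.0326, Benjamini-Hochberg adjusted p = 0.651), and without the WT PBS library numbered 14 it was 0.36.

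Dhx58 encodes LGP2, which lacks the signalling domains of the other RNA sensors (GRCm38 chr11:100694884-100704271, minus strand, protein coding). It was counted with 25 to 67 reads a sample. Dhx58 in the TRIM21 line held 1.43, 1.45 and 1.82 CPM after PBS, 1.27, 1.16 and 2.19 CPM after BSA, and 1.65, 1.73 and 1.84 CPM after IgG. Dhx58 in the WT line held 2.00, 2.11 and 2.40 CPM after PBS, 2.00, 1.52 and 2.18 CPM after BSA, and 1.16, 1.67 and 2.12 CPM after IgG. The lines overlapped, and so did the treatment groups within each line. The log2 fold change between the lines was -0.22 (SE 0.146, 95% interval -0.53 to 0.087, edgeR with Benjamini-Hochberg adjusted p = 0.402), and -0.34 without the TRIM21 BSA library numbered 14. An antisense gene, Dhx58os, shares 4.31% of the exon bases of Dhx58, and how the counting used strand is not given in the sources used here.

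Ifih1 encodes MDA5, the sensor of long double-stranded RNA (GRCm38 chr2:62595798-62646255, minus strand, protein coding). It was barely detectable, with 1 to 7 reads in each of the 18 samples, and did not pass the filter on low counts. The 9 TRIM21 samples held 39 reads in all and the 9 WT samples 25. Over the 3 treatments the TRIM21 samples ranged from 0.0495 to 0.314 CPM with a median of 0.159, and the WT samples from 0.0405 to 0.240 CPM with a median of 0.113, so the lines overlapped. A two-sided exact permutation test over the 48620 assignments of samples to lines gave p = 0.204 for a difference in mean log2 CPM of 0.28 (with 0.1 CPM added). At this depth no difference in Ifih1 between the lines was detected, and this test did not compare the treatments.

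**Figure D3:**
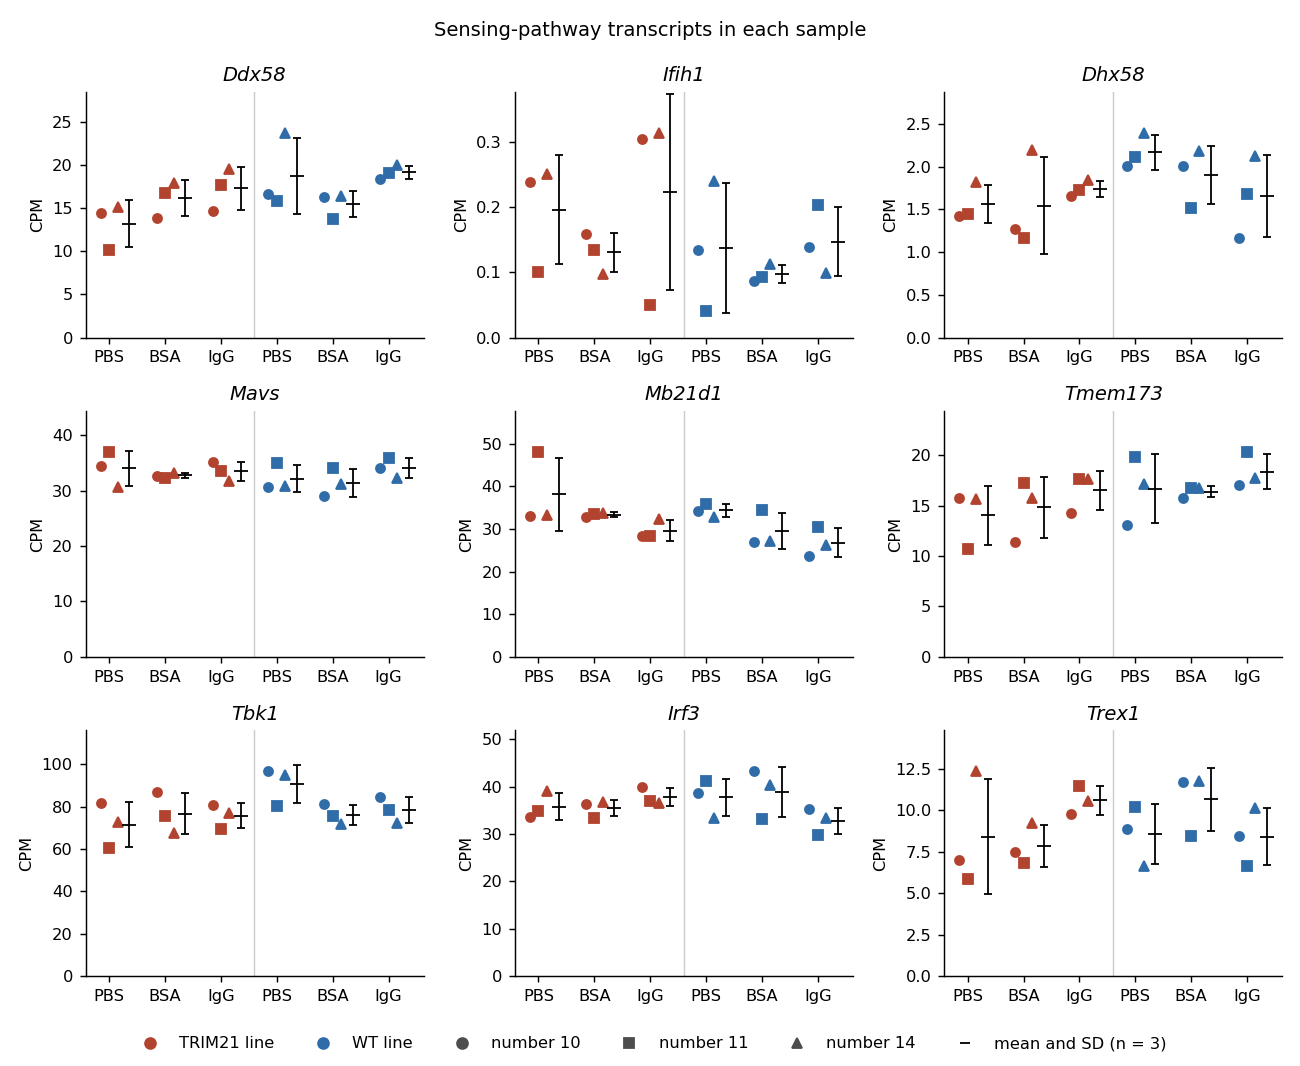
CPM of each member in every sample, by treatment, with the TRIM21 line to the left and the WT line to the right in each panel. Symbols mark the number in the sample title, and bars give the mean and SD of 3 samples. For Mb21d1 the IgG samples lie below the PBS samples in both lines, and 1 TRIM21 PBS sample stands at 48.0 CPM.

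Mavs encodes the mitochondrial adaptor on which RIG-I and MDA5 converge (GRCm38 chr2:131234063-131248025, plus strand, protein coding). Its SD was 6.39% of its mean over the 18 samples, the smallest share among the 9 members. Mavs in the TRIM21 line held 34.4, 37.0 and 30.6 CPM after PBS, 32.7, 32.3 and 33.2 CPM after BSA, and 35.1, 33.6 and 31.7 CPM after IgG. Mavs in the WT line held 30.7, 35.0 and 30.8 CPM after PBS, 28.9, 34.0 and 31.2 CPM after BSA, and 34.1, 35.9 and 32.3 CPM after IgG. Within each line all 3 treatment groups overlapped, and so did the lines. The log2 fold change between the lines was 0.038 (edgeR with Benjamini-Hochberg adjusted p = 0.732). It was 0.011 without the WT BSA library numbered 10 and 0.061 without the TRIM21 PBS library numbered 14.

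Mb21d1 encodes cGAS, the DNA sensor that makes cyclic GMP-AMP (GRCm38 chr9:78430526-78443237, minus strand, protein coding). After PBS the TRIM21 samples numbered 10, 11 and 14 held 33.0, 48.0 and 33.3 CPM, after BSA 32.8, 33.6 and 33.7 CPM, and after IgG 28.2, 28.3 and 32.3 CPM. In the WT line they held 34.3, 35.8 and 32.9 CPM after PBS, 26.9, 34.5 and 27.1 CPM after BSA, and 23.7, 30.5 and 26.2 CPM after IgG. The 3 IgG samples lay below the 3 PBS samples in both lines, and in the TRIM21 line also below the 3 BSA samples. Mb21d1 was the only 1 of the 8 tested members whose IgG and PBS groups did not overlap, in either line. Groups of 3 that did not overlap were seen for 8.95% of all tested genes in the TRIM21 line and for 7.74% in the WT line, so 1 of 8 members is near the background. For IgG and BSA, 2 of 8 members did not overlap in the TRIM21 line (Mb21d1 and Trex1), against 3.81% of all tested genes. In the WT line 2 of 8 did not overlap (Ddx58 and Tmem173), against 16.9% of all tested genes.

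The Mb21d1 log2 fold change for IgG minus PBS was -0.36 in the TRIM21 line (edgeR unadjusted p = 0.0189, Benjamini-Hochberg adjusted p = 0.724) and also -0.36 in the WT line (edgeR unadjusted p = 0.0205, Benjamini-Hochberg adjusted p = 1). Averaged over both lines it was -0.36 (SE 0.0993, 95% interval -0.57 to -0.15, edgeR unadjusted p = 0.00197, Benjamini-Hochberg adjusted p = 0.846), which did not pass the adjustment over all 12140 genes. Without the PBS library numbered 11 of the TRIM21 line, the value in that line was -0.16 and the value over both lines -0.26. With all samples and over both lines, BSA minus PBS was -0.205 (edgeR unadjusted p = 0.0525). IgG minus BSA was -0.155 over both lines (edgeR unadjusted p = 0.136), so part of the IgG minus PBS value was shared with BSA. Neither was called. Between the lines Mb21d1 had a log2 fold change of 0.16 (SE 0.0809, 95% interval -0.012 to 0.33, edgeR with Benjamini-Hochberg adjusted p = 0.269), and without the TRIM21 PBS library numbered 11 it was 0.092. The pseudogene Gm8093 shares 4.87% of the exon bases of Mb21d1 on the opposite strand.

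Tmem173 encodes STING, which binds the dinucleotide made by cGAS (GRCm38 chr18:35733679-35740554, minus strand, protein coding). Tmem173 in the TRIM21 line held 15.7, 10.7 and 15.7 CPM after PBS, 11.4, 17.2 and 15.8 CPM after BSA, and 14.3, 17.6 and 17.7 CPM after IgG. Tmem173 in the WT line held 13.0, 19.8 and 17.1 CPM after PBS, 15.7, 16.7 and 16.7 CPM after BSA, and 17.0, 20.3 and 17.7 CPM after IgG. In the WT line the IgG samples lay above the BSA samples by a small margin, and the other groups overlapped. The log2 fold change between the lines was -0.18 (edgeR with Benjamini-Hochberg adjusted p = 0.318). Transcripts of both cGAS and STING were thus present in these fibroblasts, with 213 to 489 counts of Tmem173 and 510 to 1030 counts of Mb21d1 a sample.

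Tbk1 encodes the kinase shared by both arms (GRCm38 chr10:121546455-121586787, minus strand, protein coding). Tbk1 in the TRIM21 line held 81.6, 60.4 and 72.7 CPM after PBS, 86.9, 75.6 and 67.8 CPM after BSA, and 80.7, 69.4 and 77.1 CPM after IgG. Tbk1 in the WT line held 96.6, 80.2 and 94.8 CPM after PBS, 81.2, 75.6 and 71.9 CPM after BSA, and 84.8, 78.3 and 72.5 CPM after IgG. The highest values, 94.8 and 96.6 CPM, were in WT samples after PBS, and the lines overlapped. The log2 fold change between the lines was -0.13 (edgeR with Benjamini-Hochberg adjusted p = 0.293).

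Irf3 encodes the transcription factor that TBK1 phosphorylates (GRCm38 chr7:44997648-45002848, plus strand, protein coding). Irf3 in the TRIM21 line held 33.6, 34.8 and 39.0 CPM after PBS, 36.3, 33.4 and 36.7 CPM after BSA, and 39.9, 36.9 and 36.6 CPM after IgG. Irf3 in the WT line held 38.7, 41.1 and 33.4 CPM after PBS, 43.2, 33.1 and 40.2 CPM after BSA, and 35.2, 29.8 and 33.3 CPM after IgG. The line means were 36.4 ± 2.20 and 36.5 ± 4.50 CPM (SD, n = 9 each), and the log2 fold change between them was -0.00040 (95% interval -0.14 to 0.13, edgeR with Benjamini-Hochberg adjusted p = 0.998). For IgG minus BSA the WT line had a log2 fold change of -0.24 by edgeR with an unadjusted p of 0.0417 and a Benjamini-Hochberg adjusted p of 0.741. The difference between the lines in that contrast was 0.34 (edgeR unadjusted p = 0.047, Benjamini-Hochberg adjusted p = 0.843). Bcl2l12 on the opposite strand shares 2.56% of the exon bases of Irf3.

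Trex1 encodes the DNA exonuclease that limits ligand for cGAS (GRCm38 chr9:109057933-109059734, minus strand, protein coding). All of its exon bases lie within exons of Atrip on the same strand, and Atrip is also in the count tables. The counts of Trex1 are therefore uncertain, since the authors' annotation and the way shared bases were assigned are not given in the sources used here. Trex1 in the TRIM21 line held 6.99, 5.85 and 12.3 CPM after PBS, 7.46, 6.80 and 9.22 CPM after BSA, and 9.74, 11.5 and 10.5 CPM after IgG. Trex1 in the WT line held 8.86, 10.2 and 6.61 CPM after PBS, 11.7, 8.43 and 11.8 CPM after BSA, and 8.46, 6.65 and 10.1 CPM after IgG. In the TRIM21 line the IgG samples lay above the BSA samples, and in the WT line the IgG and BSA groups overlapped. The difference between the lines in IgG minus BSA was 0.77 on the log2 scale (edgeR unadjusted p = 0.0349, Benjamini-Hochberg adjusted p = 0.843). Between the lines the log2 fold change was -0.042 (edgeR with Benjamini-Hochberg adjusted p = 0.891), and without the PBS library numbered 11 of the TRIM21 line it was 0.025.

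That PBS library of the TRIM21 line stood at an end of the range for 6 of the 8 tested members. It was the lowest of the 18 samples for Ddx58, Tmem173, Tbk1 and Trex1 and the highest for Mavs and Mb21d1. No other library stood at an end of the range for more than 2 members. It also had the lowest summed level of the 10 fibroblast markers, 19604 CPM against 29010 to 38979 CPM in the other 17 samples. The part of these markers in the members' values was not tested. The share of all tested genes for which this library was lowest or highest was not counted. The 6 of 8 therefore has no background here and is not shown to be particular to the members.

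**Figure D4:**
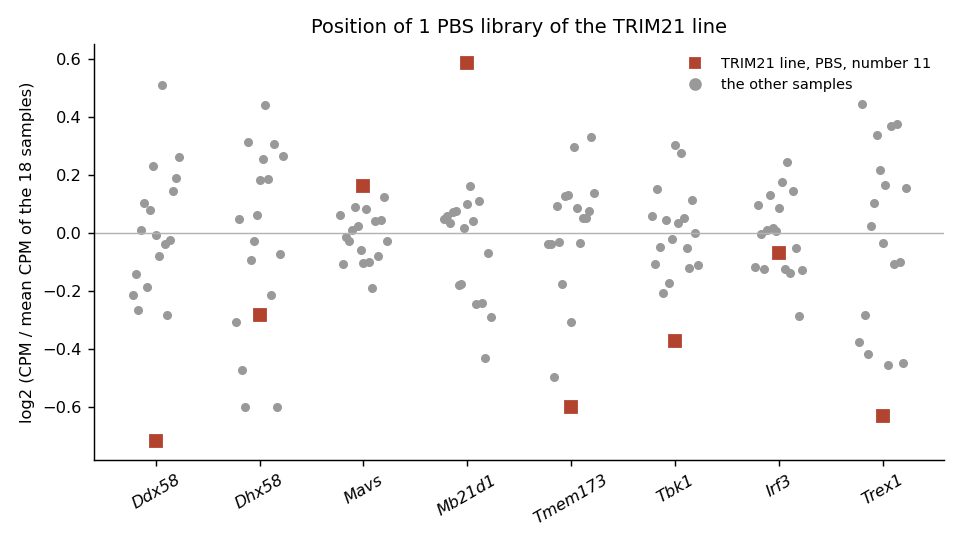
Log2 of each sample's CPM over the mean CPM of the 18 samples, for the 8 tested members. Squares mark the PBS library numbered 11 of the TRIM21 line, and grey points mark the other 17 samples. The square is at an end of the range for 6 of the 8 members, and the same share over all tested genes was not counted.

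Across the 18 samples the members did not move as 1 block. Of 28 pairs of tested members, 2 had a correlation of log2 CPM that passed adjustment over the 28 by a permutation test with 100000 resamples, both by r and by rho. The permutations here and below shuffled all 18 samples freely. Their p-values therefore take no account of the groups or of likeness between samples of the same number. Irf3 and Trex1 had r = 0.717 and rho = 0.732 (permutation p = 0.00089, Benjamini-Hochberg adjusted 0.0249), and r was 0.647 without the 2 samples farthest from the median. Ddx58 and Tmem173 had r = 0.682 and rho = 0.680 (permutation p = 0.00211, Benjamini-Hochberg adjusted 0.0295), and r was 0.543 without the 2 farthest samples. After removal of the group means, r was 0.749 for Irf3 and Trex1 and 0.59 for Ddx58 and Tmem173. Ddx58 and Mb21d1, the lead sensors of the RNA and DNA arms, had r = -0.569 and rho = -0.453 (permutation p = 0.0174, Benjamini-Hochberg adjusted 0.163), which did not pass.

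Correlations of the members with 3 measures of the libraries were examined as 24 relations, of which 7 passed adjustment by r and 4 by rho. With the log2 summed fibroblast markers, Mb21d1 had r = -0.793 and rho = -0.567 (permutation p = 0.00038, Benjamini-Hochberg adjusted 0.00912, and 0.0548 for rho), and r was -0.581 without the 2 farthest samples. Ddx58 had r = 0.769 and rho = 0.548 with the same sum (permutation p = 0.00076, Benjamini-Hochberg adjusted 0.00912, and 0.0605 for rho), and r was 0.499 without the 2 farthest samples. By r, Mb21d1 was thus lower, and Ddx58 higher, where the matrix and mesenchymal transcripts of the fibroblasts were higher. In the TRIM21 line this sum was 19604 to 33062 CPM after PBS and 31447 to 32752 CPM after IgG. In the WT line it was 32405 to 36317 CPM after PBS and 32093 to 38476 CPM after IgG. Trex1 (r = 0.578, rho = 0.445, permutation p adjusted 0.0357 for r and 0.155 for rho) and Mavs (r = -0.575, rho = -0.488, adjusted 0.042 and 0.113) also passed by r with this sum, and r was 0.585 and -0.373 without the 2 farthest samples. Dhx58 passed by rho with this sum (rho = 0.666, permutation p = 0.0033, Benjamini-Hochberg adjusted 0.0198), while its r was 0.535 (permutation p = 0.0167), and r was 0.713 without the 2 farthest samples. Whether this covariation has a part in the IgG and PBS values of Mb21d1 and Ddx58 was not tested.

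The relations that passed by both r and rho were with depth and with reads outside genes. Irf3 had r = 0.587 and rho = 0.703 with the log2 number of gene reads (permutation p adjusted 0.042 and 0.0198), and r was 0.588 without the 2 farthest samples. With the percent of reads outside genes Irf3 had r = -0.646 and rho = -0.692 (permutation p adjusted 0.0294 and 0.0198; r = -0.609 without the 2 farthest). Ddx58 had r = 0.574 and rho = 0.680 with the same percent (permutation p adjusted 0.0484 and 0.0198; r = 0.538 without the 2 farthest). The part of these measures in the members' values was not tested.

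The genes most like each member over the 18 samples came from outside the pathway. They are given by the Pearson correlation of log2 CPM as a description of these libraries, whose depth and preparation all genes share. For Ddx58 these were Nbr1, a selective autophagy receptor, at 0.952, Zfp281 at 0.938 and the matrix-crosslinking enzyme Lox at 0.931. For Mb21d1 they were Fam98a at 0.913, Dkc1, which encodes the pseudouridine synthase dyskerin, at 0.896 and Nde1 at 0.895. For Tbk1 they were the kinase gene Clk4 at 0.900, Lrrcc1 at 0.874 and Parp8 at 0.855.

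For Trex1 the most alike genes were Tsc22d4 at 0.933, Bckdha at 0.933 and Pcolce at 0.931, and for Irf3 they were 1110038F14Rik at 0.906, Romo1 at 0.904 and Arl2 at 0.898. Tmem173 was most like Agtrap at 0.874, Atp6v0a1 at 0.867 and Osbp2 at 0.861. Mavs was most like the amino acid transporter gene Slc7a1 at 0.856, 2310034G01Rik at 0.830 and Gmeb1 at 0.828, and Dhx58 most like Zfp503 at 0.801, Taf8 at 0.790 and Smim1 at 0.762. After removal of the group means, the correlations of the leading genes of Ddx58, Mb21d1 and Tbk1 were 0.954, 0.945 and 0.948, so most of this likeness lies between samples of the same group.

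The rest of the pathway was read from lists of its known components. None of 11 tested cofactors of the RNA sensors, such as Trim25 and Zc3hav1, was called between the lines, and their median log2 fold change was 0.087. None of 10 tested genes for nucleic acid removal, such as Samhd1 and Adar, was called (median 0.072), and none of 12 tested brakes and modifiers was called (median -0.011). Of 6 tested genes of endosomal sensing 0 were called (median -0.0010), and of 7 tested interferon receptor and JAK-STAT genes 0 were called (median -0.069). These counts stand beside 6.18% of all tested genes, whose median was 0.014, and they are too small to set the lists apart from that share.

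Among 14 tested DNA sensors and cofactors, 1 was higher and 1 lower in the TRIM21 line, against 1.39% and 4.79% of all tested genes. Aim2, the sensor of the DNA inflammasome, rose from 0.433 ± 0.171 CPM in the WT line to 1.33 ± 0.226 CPM in the TRIM21 line (SD, n = 9 each), with a log2 fold change of 1.62 (SE 0.186, edgeR with Benjamini-Hochberg adjusted p = 1.28e-05). The 9 samples of each line did not overlap, which held for 1.91% of all tested genes. Aim2 was low throughout, at 0.243 to 0.815 CPM in the WT line, and did not pass the stricter filter of at least 10 counts in every sample. Enpp1, the phosphodiesterase that hydrolyses extracellular cyclic GMP-AMP, fell from 53.5 ± 4.64 to 33.7 ± 2.39 CPM (SD, n = 9 each), with a log2 fold change of -0.66 (SE 0.0526, edgeR with Benjamini-Hochberg adjusted p = 1.20e-07). Its lines did not overlap either. The median of the 14 was 0.085.

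Optn, which encodes the TBK1-binding adaptor optineurin, was the only 1 of 16 tested adaptors and kinase partners to be called, near the 6.18% of all tested genes. It fell from 1.86 ± 0.325 CPM in the WT line to 0.994 ± 0.256 CPM in the TRIM21 line (SD, n = 9 each), with a log2 fold change of -0.91 (SE 0.160, edgeR with Benjamini-Hochberg adjusted p = 0.00142). Irf5 was the only 1 called among 5 tested IRF genes other than Irf3, against 4.79% of all tested genes called lower. That count is too small to set the list apart from this share. Irf5 fell from 2.93 ± 0.522 to 1.97 ± 0.202 CPM (SD, n = 9 each; log2 fold change -0.56, SE 0.117, edgeR with Benjamini-Hochberg adjusted p = 0.00560). In both Optn and Irf5 the lines did not overlap, which held for 1.91% of all tested genes, and their calls held with any 1 sample left out. The same holds for Aim2 and Enpp1. The largest adjusted p-values over the 18 such refits of edgeR were 7.01e-05 for Aim2, 8.17e-07 for Enpp1, 0.00479 for Optn and 0.0171 for Irf5.

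Counts of the interferon ligand genes were at or near 0. None of the 16 interferon ligand genes listed had enough reads to be tested, and 10 of them, Ifnb1 among these, had 0 reads in all 18 samples. A count of 0 allows up to 3 reads in a sample, or 0.154 per 1000000 gene reads in the shallowest library, and this covers counting error only. Alignments that were not unique are outside these counts, so reads that fit several similar genes would not be seen. Ifne had 60 reads over all 18 samples and at most 9 in 1 sample, and Ifnab had 7 reads over 6 samples. Ifna2, Ifna7, Ifna9 and Ifnl3 had 1 read each over all samples.

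Of 15 tested interferon-induced genes, 1 was called higher and 2 lower in the TRIM21 line, against 1.39% and 4.79% of all tested genes. Their median log2 fold change was -0.22, with 13 of 15 lower, against 0.014 over all tested genes. The 10 fibroblast markers had a median of -0.26 in the same contrast, with 9 of 10 lower, and their part in the interferon-induced genes' values was not tested. Cmpk2 fell from 1.32 ± 0.293 to 0.720 ± 0.251 CPM (SD, n = 9 each; log2 fold change -0.84, edgeR with Benjamini-Hochberg adjusted p = 0.0146) and kept its call with any 1 sample left out. Ifi44 had a log2 fold change of -0.94 (edgeR with Benjamini-Hochberg adjusted p = 0.0484) and Ifit2 one of 0.33 (edgeR with Benjamini-Hochberg adjusted p = 0.0428). Both lost the call in 13 of 18 refits without 1 sample, with log2 fold changes of -1.12 to -0.79 for Ifi44 and 0.25 to 0.39 for Ifit2. Ifi44 kept its call only where the sample left out was a TRIM21 BSA sample, the TRIM21 PBS sample numbered 14 or the WT PBS sample numbered 10. Ifit2 kept its call only where it was a TRIM21 PBS sample numbered 10 or 14, the WT PBS sample numbered 14 or the WT BSA or IgG sample numbered 11. No gene of any of these lists was called in a treatment contrast. For IgG minus PBS in the TRIM21 line, the interferon-induced genes had a median log2 fold change of 0.29, with 11 of 15 higher, while the fibroblast markers had a median of 0.30, with 9 of 10 higher, and all tested genes one of 0.0080. For IgG minus PBS in the WT line the interferon-induced genes had a median of -0.054, with 7 of 15 higher. The fibroblast markers there had a median of 0.047, with 7 of 10 higher. The part of the markers in these medians was not tested either. Among the fibroblast markers Thy1, a surface glycoprotein, was called lower in the TRIM21 line (log2 fold change -0.29, edgeR with Benjamini-Hochberg adjusted p = 0.0207). Without the TRIM21 sample numbered 10 after BSA or after IgG, its adjusted p by edgeR was 0.0509 and 0.0547.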

How the data were processed

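The authors deposited 1 table of raw counts of reads per gene symbol for each of the 18 samples, without normalization. Per the submitters' processing notes, the tools were bcl2fastq 2.19.1.403, FastQC 0.11.5, STAR 2.5.1b, HTSeq 0.6.0 and DESeq2 1.6.3, with build mm10 (GRCm38). The annotation and the strand setting of the counting are not given in the sources used here. Libraries kept strand and were enriched for polyA, per the labels' protocols. Reads outside genes (13.1% to 18.8%) and ambiguous reads (0.473% to 0.630%) stayed out of all totals. So did alignments that were not unique, 14199493 to 22123689 a sample.

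Counts were fitted with edgeR 4.0.16 in R 4.3.3, with filterByExpr (minimum count 10), TMM factors (0.977 to 1.03) and 1 mean per group over all 18 samples. Benjamini-Hochberg adjustment ran over the 12140 tested genes within each contrast. Samples of 1 group differed by more than counting noise (chi-square over its degrees of freedom 10.6 to 82.0 over 18 pairs). Exon lengths and positions came from GENCODE for GRCm38, matched by symbol for 23641 of 24062 genes. Correlations and permutation tests were computed in Python 3.11.15, with ranks and the Benjamini-Hochberg adjustment of the correlations from scipy 1.17.1.

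The members and the gene lists were chosen with earlier results of these data known. Named from the lists were all members, Trim21, up to 5 called genes a list between the lines and up to 3 in the treatment contrasts, ligands with any read, and the 3 genes most like each member. Alternatives were other size factors, no filter, a stricter filter, a replicate block, DESeq2 1.42.0, limma-voom (limma 3.58.1), only the groups compared, each number alone and each sample left out. A wider promoter search was added after seeing the data.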

Additional observations from a re-analysis of the deposited data

Results flagged for a closer look

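The PBS library numbered 11 of the TRIM21 line held 48.0 CPM of Mb21d1, the cGAS gene, and stood far above the other 8 samples of that line. The next highest sample held 33.7 CPM. The gap to it was 0.724 of the whole range of the 9 samples, above the Dixon limit of 0.493 for 9 samples. In all, 18 sets of 9 samples, 1 per member and line, were examined, and chance flags about 1 in 20. Of 24 differences between the lines in a treatment contrast, 0 were called by edgeR for a member.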

How the results depend on the processing

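No member was called in any of 321 counts over contrasts and alternatives. The number of genes called between the lines, 750 as reported, ranged from 500 to 1244 with 1 sample left out. It was 301, 62 and 142 within the numbers 10, 11 and 14, where only 6 samples enter the fit. With the replicate block it was 1462. Among members 3 of 8 then had an unadjusted p under 0.05 by edgeR (Tbk1, Ddx58 and Mb21d1), beside 3318 of all 12140 tested genes. The smallest adjusted p of a member was 0.113 (Tbk1, edgeR with Benjamini-Hochberg adjustment). The block also called 1 gene for IgG minus PBS over both lines, and the DESeq2 Wald test called 1 there too, against 0, and the gene was Dancr in both, named after its values were seen. Same-numbered samples of different groups had deviations correlated at 0.218 on average over 45 pairs, with a lowest value of -0.323 and 32 pairs over 0.1. Of 18 samples, 16 correlated best with their own number, which is a hint from the data and not from the design, so the numbers were not taken to pair the samples. The Irf3 log2 fold change between the lines, which lies next to 0, turned positive with DESeq2 size factors (0.0045), no filter (0.0014), the replicate block (0.00055), DESeq2 (0.0049) and limma-voom (0.0038), and within the numbers 11 (0.020) and 14 (0.072). Mavs turned to -0.035 within number 11 and Trex1 to 0.19 within number 14. With 1 sample left out, Irf3 ranged from -0.039 to 0.022 and Trex1 from -0.17 to 0.025. The cause of these changes was not tested. Of 412 values of members under alternatives, 389 kept their direction and their side of the threshold. Within single numbers the calls of Optn, Irf5, Cmpk2, Ifit2 and Ifi44 were lost in all 3, that of Thy1 in numbers 11 and 14, that of Enpp1 in number 11 and that of Aim2 in number 14. The log2 fold changes there kept their direction, for example -0.63, -0.50 and -0.57 for Irf5 and -1.18, -0.91 and -0.94 for Ifi44. Ifit2 was also lost with at least 10 counts in every sample (adjusted p = 0.0503 by edgeR). Aim2, Cmpk2 and Ifi44 did not pass that stricter filter, so their calls could not be checked with it. Their lowest samples held 0.243, 0.250 and 0.357 CPM. Depth limits Ifih1 and the interferon genes, at a few reads a sample or fewer.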
